A study of Brassica napus with 2 samples.

Results

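Small GTPases are switch proteins that steer membrane traffic and cell polarity in plant cells. In these RNA-seq data from seeds of *Brassica napus*, the unigenes (assembled transcripts) of the Rab, ARF, ROP and Ran GTPases and of the proteins that switch them on and off were collected. A unigene was a member if the table assigned it a *B. napus* gene and its Swiss-Prot description named a Ras-related protein, a Rac-like GTP-binding protein, an ADP-ribosylation factor, the GTP-binding nuclear protein Ran, a Rop guanine nucleotide exchange factor or a GTPase-activating protein. The rule used words and no measured value. It found 124 unigenes of 115 genes among the 50366 unigenes of the table, 28771 of which had an assigned gene. A further 12 unigenes fitted the words without an assigned gene and were left out, among them a RABG3f unigene with 3889 reads in yellow seeds and 4230 in brown seeds.

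The study compared seeds of the yellow-seeded line Cy2Y (genotype *YY*), a spontaneous dominant mutant, with seeds of its brown-seeded parent line Cy2B (genotype *yy*). No other allele and no treatment is given for either line. Both lines were drawn from repeated selfing of a heterozygous plant and are treated as near-isogenic. Seeds were taken 26 days after flowering from plants grown in the field, and RNA of whole seeds, with coat, endosperm and embryo together, gave 1 library per line. With 1 library per line there is no replicate check, so every test sets the 2 libraries against each other rather than the lines, and intervals cover counting error only.

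A small GTPase is active with GTP bound and inactive with GDP bound. Guanine nucleotide exchange factors load the GTP, GTPase-activating proteins speed its hydrolysis, and GDP dissociation inhibitors hold the inactive protein off the membrane. Rab proteins label compartments and dock vesicles, ARF proteins recruit vesicle coats, ROP proteins direct actin, microtubules and exocytosis at the cell cortex, and Ran drives transport through nuclear pores. Maturing seeds depend on this traffic, because storage proteins are carried from the endoplasmic reticulum to vacuoles and the cells of the seed coat secrete wall material.

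The libraries held 23236592 reads in yellow seeds and 23575447 in brown seeds. A unigene was called different if its adjusted p was under 0.05 by Fisher's exact test, with Benjamini-Hochberg adjustment over all unigenes, and its ratio of yellow over brown seeds was past 2-fold. Seed identity was clear from the markers, with the napin unigene comp51403_c0 at an RPKM of 915 in yellow and 136 in brown seeds. RPKM scales reads to the length of the unigene and the size of the library, so that it can be compared between genes. Of 24 embryo storage markers (cruciferins, napins and oleosins), 17 were called higher in yellow seeds and 2 lower, and their summed RPKM was 2203 in yellow and 535 in brown seeds. The 10 seed coat markers summed to 849 in yellow and 790 in brown seeds, with none called, and the 3 endosperm markers to 34.5 in yellow and 47.7 in brown seeds, again with none. The 20 leaf photosynthesis markers summed to 4597 in yellow and 3554 in brown seeds, with none called but 12 higher and 0 lower at an adjusted p under 0.05, and of 12 pollen markers 1 was called higher and 1 lower. A difference in the share of a tissue and a difference in RNA per cell cannot be told apart in whole seeds. Both libraries have the same age in days, but how far the seeds of each line had matured was not tested. The part of the embryo and photosynthesis markers in the values below was not tested either.

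No member was called higher in yellow seeds and 2 of 124 were called lower, both of them unigenes named RopGEF2. The background over all unigenes was 3.28% called higher and 1.47% lower, and over unigenes with an assigned gene 2.69% and 1.32%. The count of members called lower was therefore close to the background, and the count called higher below it. At an unadjusted p under 0.05, 12 members were higher and 31 lower, against 16.1% higher and 15.7% lower of the unigenes with an assigned gene. At an adjusted p under 0.05 with any fold, 9 members were higher and 25 lower, against 10.9% and 10.6%. At both thresholds the share of members that was lower lay above the background and the share that was higher below it. The members also had higher RPKM than the background, as given below, and the part of their level in these counts was not tested.

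Most members had nearly the same level in yellow and brown seeds. Of the 119 members that reached 20 reads in sum, 103 (86.5%) had a ratio within 1.5-fold, against 85.4% of the unigenes with an assigned gene. The median log2 ratio of the 119 members, with 1 read added to each count, was -0.06, against -0.01 over the unigenes with an assigned gene. Of these members 44 lay above 0 and 75 below it. At a 1.5-fold threshold and an adjusted p under 0.05, 1 member was higher and 6 were lower, against 4.52% and 3.17% of the unigenes with an assigned gene and at least 20 reads. The other 5 members had 10 reads or fewer, of which RABA1h had 2 in yellow and 0 in brown seeds and a RABA6a unigene (comp27894_c1) had 0 in yellow and 3 in brown seeds.

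**Figure D1:**
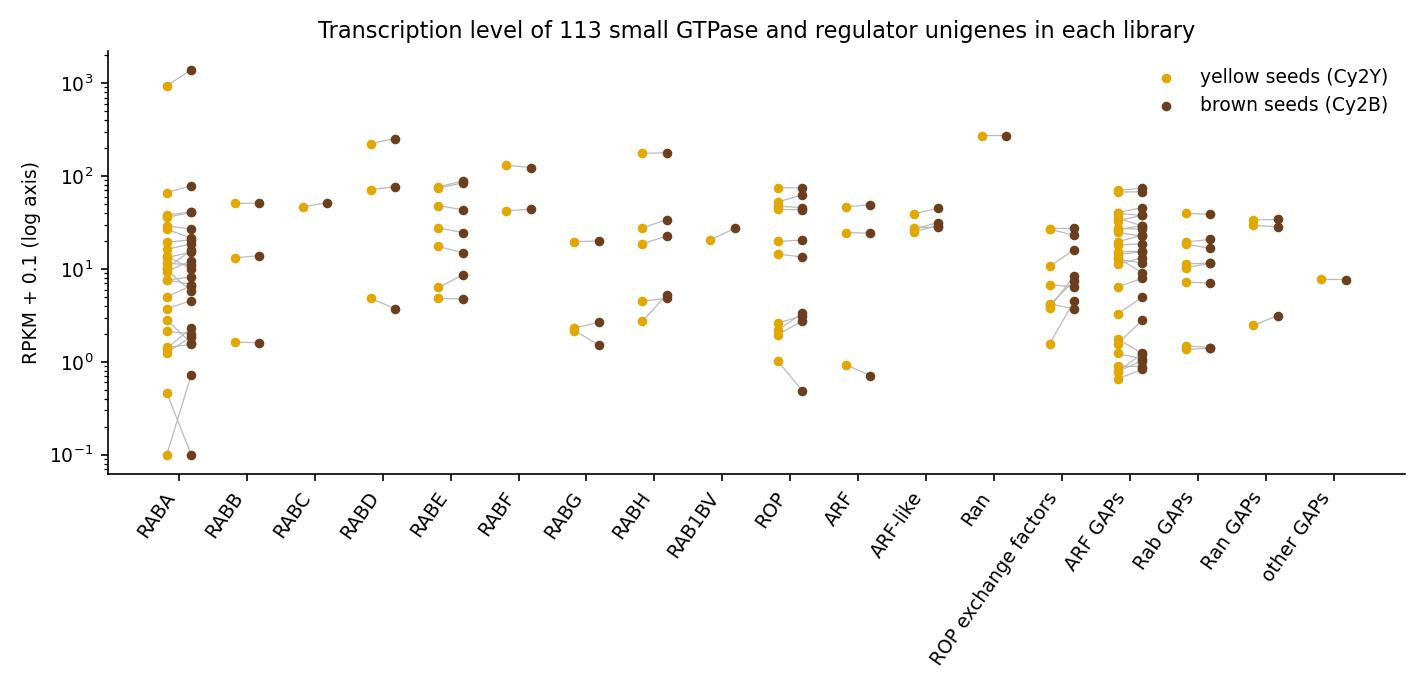
RPKM plus 0.1, on a log axis, of each of 113 member unigenes in yellow (left) and brown (right) seeds, by Rab clade or protein class (1 class of GTPase-activating proteins is not shown), with a line joining the values of a unigene. The lines are nearly level in most groups. The unigene named RABA5c at the top of RABA, which also matched a WD-40 repeat protein, has 941 in yellow and 1387 in brown seeds.

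The members covered a wide range of transcription levels. A mean RPKM of at least 100 was found for 5 of them (4.03%) and a mean between 10 and 100 for 70 (56.5%), against 3.34% and 33.6% of the unigenes with an assigned gene. All 5 at the top had the Swiss-Prot name of a GTPase and not of a regulator. The most abundant was a unigene named RABA5c (comp53929_c0), followed by Ran-1, RABD1, RABH1b and RABF2a. The transcripts named RABA5c and Ran-1 also matched other proteins, as given below, so their levels may not be those of a GTPase alone. The plot of RPKM by subfamily shows that each Rab clade other than RABC, with its lone unigene, held members that differed in level.

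The Rab family held 50 of the unigenes, 48 with at least 20 reads. None was called, and the median log2 ratio was -0.10. At an adjusted p under 0.05 with any fold, 3 of the 50 were higher and 10 lower, beside the background of 10.9% and 10.6%. By the plant clades, RABA had 25 unigenes and a median of -0.12, RABB 3 and -0.01, RABD 3 and -0.11, RABE 7 and 0.02, RABF 2 and 0.01, RABG 3 and -0.02, and RABH 5 and -0.28. RABC had 1, at -0.15, and a unigene named after RAB1BV of *Beta vulgaris* stood outside these clades, at -0.43. No clade median reached 1.5-fold.

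RABA proteins, the large plant branch of the Rab11 group, act between the trans-Golgi network, recycling endosomes and the plasma membrane or cell plate. The RABA5c unigene comp53929_c0 had 74625 reads in yellow seeds and 111618 in brown seeds, an RPKM of 941 in yellow and 1387 in brown. It ranked 21st of all unigenes by mean RPKM, and its ratio was 0.678 (95% interval 0.672 to 0.685), which did not pass 2-fold. This transcript is 3411 bp long, longer than a Rab coding sequence needs, and its assigned gene on C02 (42054373 to 42062378) spans 8006 bp. Its best NR hit was a WD-40 repeat protein, its KEGG names were PHIP and WDR11, and its KOG entry named WD40 repeat and BROMO domains. Its Pfam matches included a bromodomain beside the Ras family. Reads of a neighbouring or fused transcript therefore cannot be separated from those of RABA5c, and the share that belongs to RABA5c is not known.

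This unigene held most of the reads counted to the unigenes with Rab names. The Rab unigenes together had 110883 reads in yellow seeds and 150893 in brown seeds, a ratio of 0.746 (0.740 to 0.751). Without it they had 36258 reads in yellow seeds and 39275 in brown seeds, a ratio of 0.937 (0.923 to 0.950). The other RABA5c unigene (comp34835_c0, on A03 from 9541229 to 9541958) went the opposite way, with 96 reads in yellow seeds and 56 in brown seeds. Its ratio of 1.74 (1.24 to 2.46) was the highest among members with at least 100 reads, with an adjusted p of 0.00808 by Fisher's exact test and Benjamini-Hochberg adjustment, and its interval did not overlap that of the abundant unigene.

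Of the other RABA unigenes, some passed the adjusted p in either direction, none past 2-fold. RABA1e (comp44666_c0) had 291 reads in yellow seeds and 460 in brown seeds, a ratio of 0.642 (0.552 to 0.745). RABA1g (comp48341_c1) had 483 reads in yellow seeds and 645 in brown seeds, a ratio of 0.760 (0.674 to 0.856), on a transcript that also matched a RING-variant domain. RABA2c (comp46603_c0), whose *Arabidopsis* counterpart marks the growing cell plate, had 1757 reads in yellow seeds and 2114 in brown seeds, a ratio of 0.843 (0.791 to 0.899). These 3 passed the adjusted p as lower without the fold. RABA1d (comp43291_c0) had 481 reads in yellow seeds and 390 in brown seeds, a ratio of 1.25 (1.09 to 1.43), and RABA6b (comp43303_c0) had 287 in yellow and 208 in brown seeds, a ratio of 1.40 (1.17 to 1.68), and both passed the adjusted p as higher. The RABA3 and RABA4 unigenes, 7 in all, had ratios from 0.649 to 1.13 with no adjusted p under 0.05. RABA4b marks tip-growing root hairs in *Arabidopsis*.

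**Figure D2:**
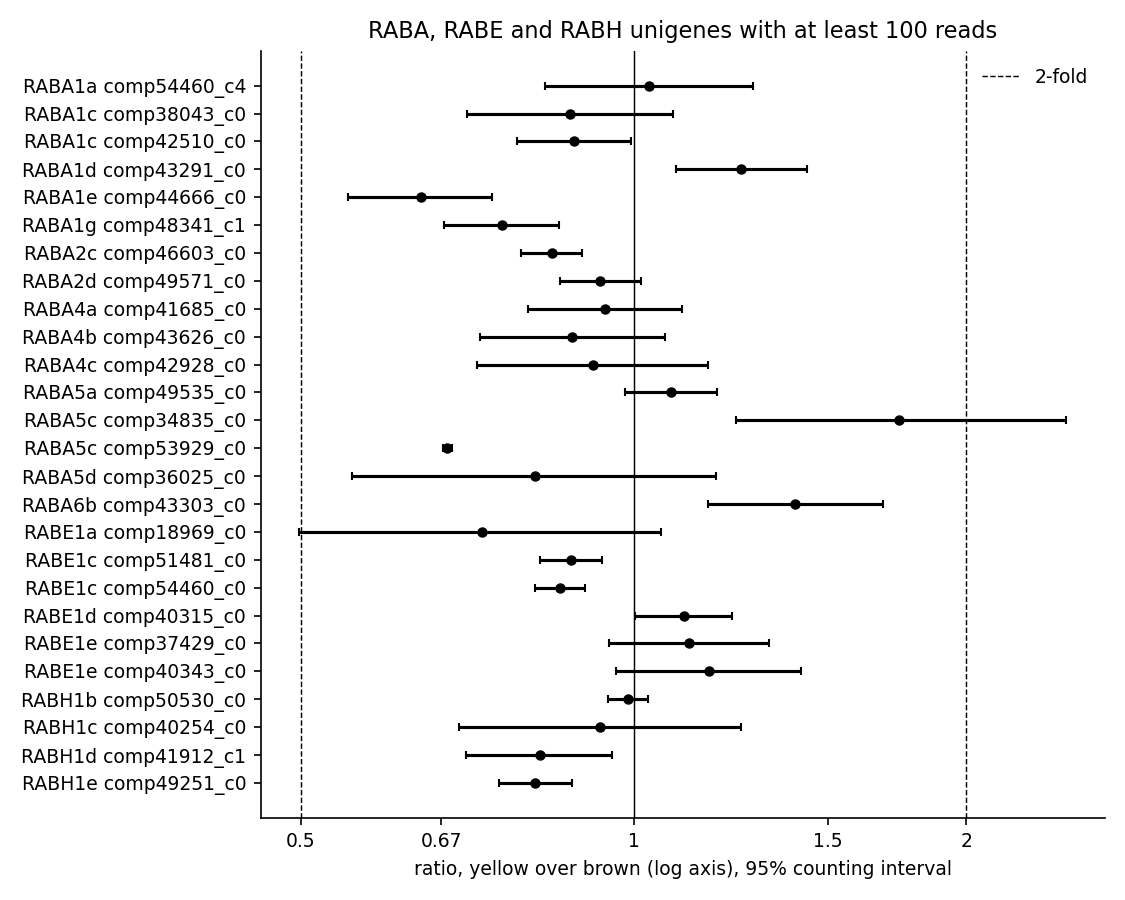
Ratio of yellow over brown seeds, on a log axis, of the RABA, RABE and RABH unigenes with at least 100 reads, with 95% counting intervals and dashed lines at 2-fold. The 2 unigenes named RABA5c lie on opposite sides of 1, at 1.74 and 0.678, and no unigene lies past 2-fold.

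RABB, RABD and RABH act around the endoplasmic reticulum and Golgi, the first steps of the secretory route. RABD1 (comp52161_c0), of the Rab1 group that carries cargo from the endoplasmic reticulum to the Golgi, had an RPKM of 223 in yellow and 253 in brown seeds. Its ratio of 0.881 (0.848 to 0.914) had an adjusted p of 6.98e-10 by Fisher's exact test with Benjamini-Hochberg adjustment. In an abundant transcript even a small difference between the 2 libraries passes such a test. This p covers counting error only and does not show a difference between the lines. RABD2a (comp44839_c0) had 71.2 RPKM in yellow and 76.8 in brown seeds, a ratio of 0.928 (0.866 to 0.994), and did not pass. RABB1c (comp52540_c0), of the Rab2 group, had 50.7 RPKM in yellow and 51.0 in brown seeds, a ratio of 0.996 (0.952 to 1.04). Its transcript of 3215 bp also matched a tetratricopeptide repeat and an X-Pro dipeptidyl-peptidase family, and the reads of these parts cannot be told apart.

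In the RABH clade, the Rab6 group of Golgi traffic, all 5 unigenes had a log2 ratio below 0, from -0.93 to -0.02. The abundant RABH1b (comp50530_c0) had 176 RPKM in yellow and 178 in brown seeds, a ratio of 0.989 (0.949 to 1.03). RABH1e (comp49251_c0) had 27.5 RPKM in yellow and 33.8 in brown seeds, a ratio of 0.815 (0.755 to 0.880), and was the only RABH unigene with an adjusted p under 0.05. The lowest, a RABH1d unigene (comp41912_c0), had 15 reads in yellow seeds and 30 in brown seeds, and its interval of 0.254 to 0.973 was wide at this depth. RABC2a (comp43558_c0), of the Rab18 group, had 46.4 RPKM in yellow and 51.5 in brown seeds, a ratio of 0.902 (0.836 to 0.972).

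RABE proteins, the Rab8 group, carry vesicles from the Golgi to the plasma membrane. Both abundant RABE1c unigenes were lower, comp54460_c0 with 76.2 RPKM in yellow and 88.8 in brown seeds and comp51481_c0 with 74.0 in yellow and 84.4 in brown seeds. Their ratios were 0.859 (0.815 to 0.905) and 0.877 (0.822 to 0.936), both with an adjusted p under 0.05. The RABE1d unigene (comp40315_c0) had 48.0 RPKM in yellow and 43.3 in brown seeds, giving a ratio of 1.11 (1.00 to 1.23), and the 2 RABE1e unigenes had ratios of 1.12 and 1.17, none of which passed the adjusted p. The third RABE1c unigene (comp81582_c0), with 39 reads in yellow seeds and 39 in brown seeds, and the RABE1a unigene (comp18969_c0), with 51 in yellow seeds and 71 in brown seeds, giving a ratio of 0.729 (0.498 to 1.06), did not pass either. The RAB1BV unigene (comp54460_c2) was assigned to the same gene on A10 as the first RABE1c unigene, with 247 reads in yellow seeds and 337 in brown seeds, giving a ratio of 0.744 (0.628 to 0.879). Summed over that gene the reads were 2855 in yellow and 3419 in brown seeds, a ratio of 0.847 (0.806 to 0.891).

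RABF and RABG serve the route to the vacuole, where storage proteins are laid down. RABF2a (comp50725_c0), of the Rab5 group on endosomes, had 131 RPKM in yellow and 123 in brown seeds, a ratio of 1.06 (1.02 to 1.12) and an adjusted p of 0.0525 by Fisher's exact test and Benjamini-Hochberg adjustment. RABF1 (comp48005_c0), the plant-specific relative known as ARA6, had 42.1 RPKM in yellow and 44.0 in brown seeds, a ratio of 0.957 (0.872 to 1.05). RABG3a (comp46415_c0), of the Rab7 group on the vacuole, had 19.6 RPKM in yellow and 19.9 in brown seeds, a ratio of 0.984 (0.869 to 1.11). The summed RPKM of the 3 RABG members was 23.8 in yellow and 23.9 in brown seeds. That sum leaves out the more abundant RABG3f unigene (comp52806_c0), which had no assigned gene. Its RPKM was 169 in yellow and 181 in brown seeds, a ratio of 0.933 (0.89 to 0.97). Beside these Rab unigenes, the embryo storage markers given above differed by 4.01-fold in summed reads. That set pools oleosins with the cruciferins and napins, so its ratio is not a value for proteins of the vacuole alone.

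**Figure D3:**
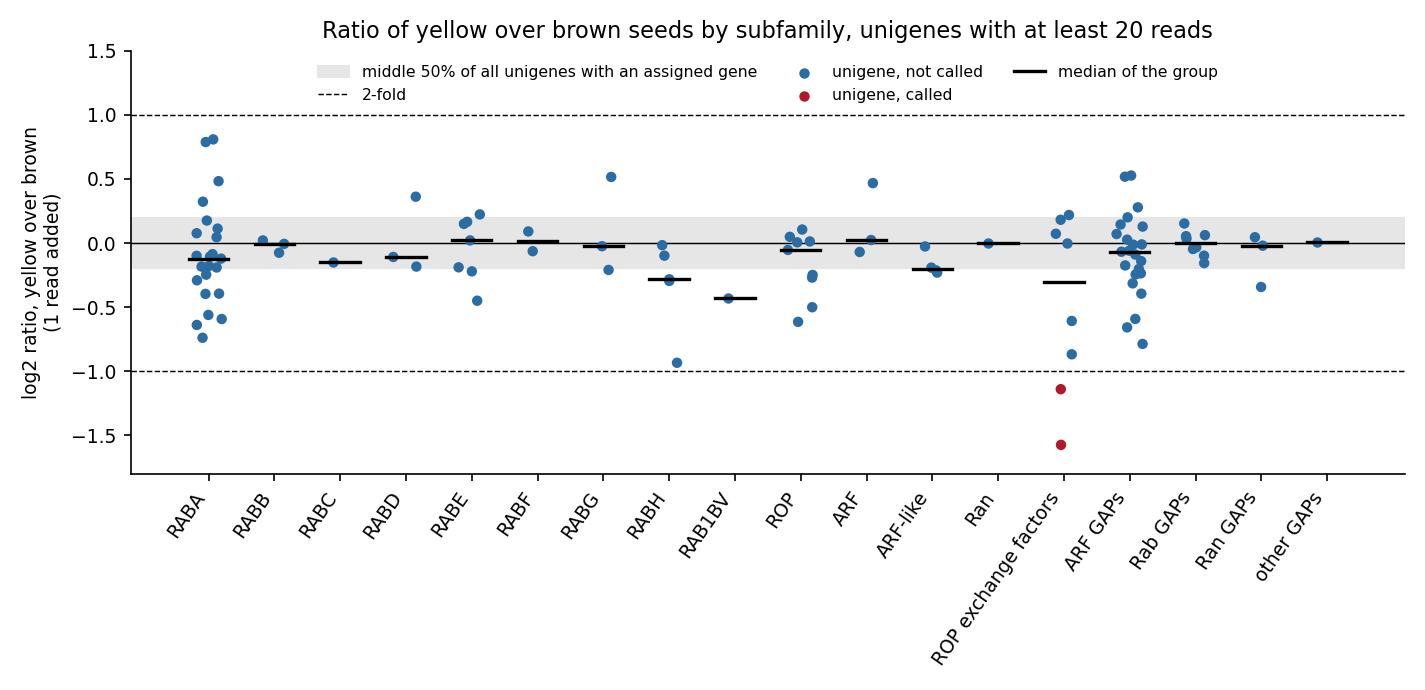
Log2 ratio of yellow over brown seeds, with 1 read added, of 108 member unigenes with at least 20 reads, by Rab clade or protein class (1 class of GTPase-activating proteins is not shown). Black bars are medians, the grey band holds the middle 50% of all unigenes with an assigned gene (-0.19 to 0.19) and dashed lines mark 2-fold. Both called unigenes, in red, are ROP exchange factors.

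The ROP GTPases had 10 unigenes, 9 with at least 20 reads, and a median log2 ratio of -0.05. Their summed RPKM was 260 in yellow and 269 in brown seeds. ARAC4 (comp54730_c0), known as ROP2 in *Arabidopsis*, where it shapes the lobes of leaf epidermal cells, had 75.1 RPKM in yellow and 74.4 in brown seeds, a ratio of 1.01 (0.947 to 1.08). ARAC5 (comp48846_c0) had 43.6 RPKM in yellow and 43.4 in brown seeds and ARAC3 (comp46654_c1) 47.3 in yellow and 45.7 in brown seeds, with ratios of 1.00 and 1.03. ARAC7 (comp40635_c0) was the only ROP unigene with an adjusted p under 0.05, at 52.7 RPKM in yellow and 62.6 in brown seeds, a ratio of 0.842 (0.779 to 0.910). ARAC9 and RAC1 unigenes of 1 gene on C04 had in sum 59 reads in yellow seeds and 90 in brown seeds, a ratio of 0.665 (0.471 to 0.934). ARAC2 (comp41770_c0), at 2.51 RPKM in yellow and 3.03 in brown seeds, had a ratio of 0.828 (0.582 to 1.17), which includes 1.

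Exchange factors with a PRONE domain, which switch ROP proteins on at the plasma membrane, held both called members. All 8 unigenes named RopGEF1 or RopGEF2 had the PRONE domain among their Pfam entries. A unigene took the name of its best Swiss-Prot entry, and some may be other members of this family. The 3 unigenes named RopGEF2 were all lower in yellow seeds. On C04 (3397643 to 3400041), comp43436_c0 had 52 reads in yellow seeds and 159 in brown seeds, an RPKM of 1.47 in yellow and 4.42 in brown. Its ratio was 0.332 (0.238 to 0.457), with an adjusted p of 5.37e-12 by Fisher's exact test and Benjamini-Hochberg adjustment.

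The second called unigene, comp44160_c1, on sequence without a chromosome, had 46 reads in yellow seeds and 104 in brown seeds, a ratio of 0.449 (0.310 to 0.641) and an adjusted p of 5.95e-05 by the same Fisher's exact test and adjustment. The third, comp44160_c0, on C03 (19732409 to 19737407), had 106 reads in yellow seeds and 197 in brown seeds, a ratio of 0.546 (0.427 to 0.695). It passed the adjusted p, at 6.70e-06 by Fisher's exact test with Benjamini-Hochberg adjustment, and fell just short of 2-fold. This unigene and comp44160_c1 came from 1 assembly component, so they may share reads or be parts of 1 transcript, and they are not independent of each other. The best NR hit of comp44160_c0 was an *Arabidopsis lyrata* entry for At4g00460, and that of comp44160_c1 was an *Arabidopsis* entry named F5I10.1 gene product. The name RopGEF2 is therefore not certain for either of them.

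Summed over the 3 unigenes named RopGEF2, the reads were 204 in yellow seeds and 460 in brown seeds, a ratio of 0.450 (0.380 to 0.532). The summed RPKM was 9.22 in yellow and 20.1 in brown seeds. As the name is uncertain for comp44160_c0 and comp44160_c1, this sum may cover more than 1 member of the family. The calls depended on an assumption that 1 library per line cannot check. In edgeR's exact test, a spread between replicate libraries of a line was assumed, as a coefficient of variation. At 0.1 both called unigenes were still called, and at 0.2 or 0.4 neither was.

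The 5 unigenes named RopGEF1 had ratios on either side of 1, with 3265 reads in yellow seeds and 3386 in brown seeds and a summed ratio of 0.978 (0.932 to 1.03). On C09 (47829002 to 47831806), comp49665_c0 had 523 reads in yellow seeds and 809 in brown seeds, a ratio of 0.656 (0.587 to 0.733). On A07 (6250345 to 6252325), comp47884_c0 had 1168 reads in yellow seeds and 1018 in brown seeds, a ratio of 1.16 (1.07 to 1.27). Both had an adjusted p under 0.05 and opposite directions. The most abundant, comp48376_c0, had 27.1 RPKM in yellow and 27.2 in brown seeds, a ratio of 0.998 (0.914 to 1.09). Its best NR hit was short internode related sequence 7 of *Brassica rapa*. Its assigned gene on A02 (18578308 to 18578664) is shorter than its transcript of 1603 bp, so its reads may not all be of an exchange factor. The remaining unigenes of this name had ratios of 1.05 and 1.14 with intervals that include 1. The median log2 ratio of all 8 exchange factors was -0.30, the lowest of the subfamilies with at least 3 unigenes, and 4 of them lay within 1.5-fold.

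**Figure D4:**
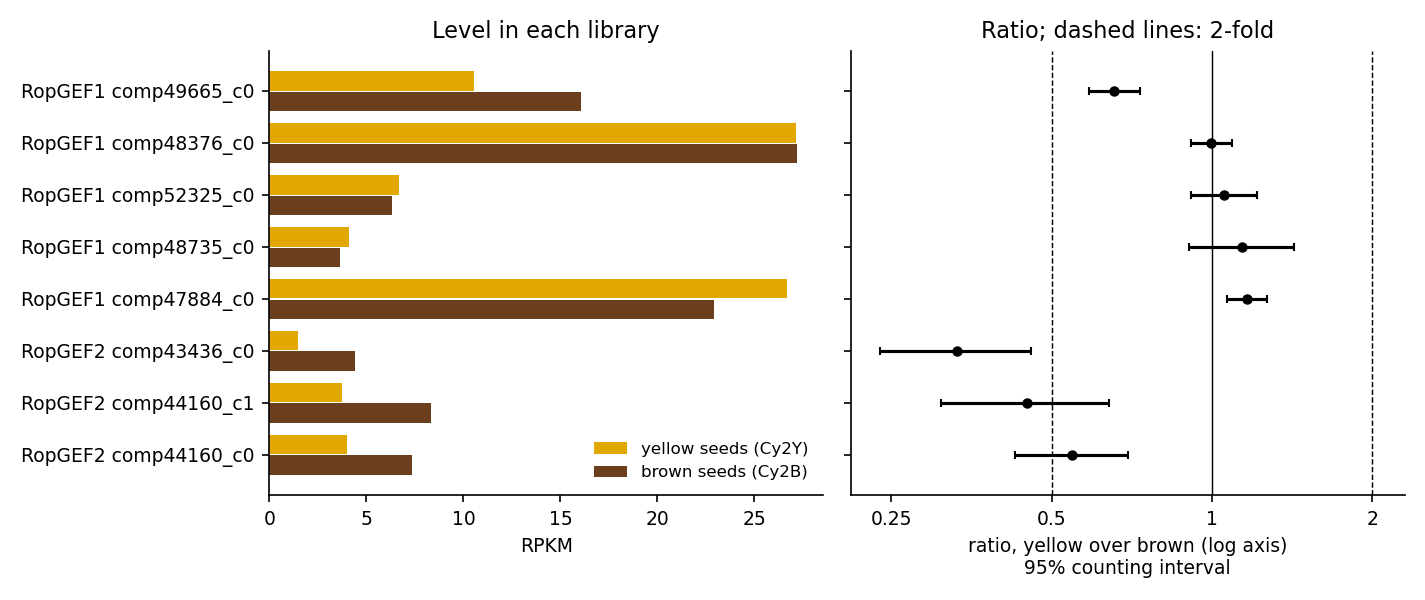
RPKM in yellow (upper bar) and brown (lower bar) seeds, left, and the ratio of yellow over brown seeds on a log axis with 95% counting intervals, right, of the 8 ROP exchange factor unigenes. The 3 unigenes named RopGEF2 lie at 0.332, 0.449 and 0.546, and those named RopGEF1 between 0.656 and 1.16. The name RopGEF2 is not certain for the unigenes at 0.449 and 0.546.

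Among the ARF group, the 3 unigenes named ADP-ribosylation factor had no adjusted p under 0.05, and the third had only 14 reads in yellow seeds and 10 in brown seeds. The most abundant (comp44385_c0) had 46.7 RPKM in yellow and 48.9 in brown seeds, a ratio of 0.953 (0.879 to 1.03). The one named At2g18390 (comp50086_c0) had 24.6 in yellow and 24.2 in brown seeds, a ratio of 1.02 (0.927 to 1.12). Its best NR hit was ADP-ribosylation factor-like 2, so it may be an ARF-like protein that was classed here by its Swiss-Prot name. The 4 unigenes classed as ARF-like by Swiss-Prot name, relatives of ARF at the Golgi and other compartments, had a median log2 ratio of -0.20. All of these lay below 0, while the At2g18390 unigene, outside this class by name, lay at 0.02. ARF-like protein 8A (comp47331_c0) had 39.3 RPKM in yellow and 44.9 in brown seeds, a ratio of 0.876 (0.806 to 0.952). ARF-like protein 5 had 26.8 RPKM in yellow and 31.5 in brown seeds, a ratio of 0.853 (0.761 to 0.956), and ARF-related protein 1 had 25.1 RPKM in yellow and 29.1 in brown seeds, a ratio of 0.863 (0.808 to 0.923). These 3 had an adjusted p under 0.05, while ARF-like protein 8B, at 27.7 RPKM in yellow and 28.2 in brown seeds, did not. The ARF-related protein 1 transcript of 2790 bp also matched protein phosphatase inhibitor 2, so its reads may not all be of a GTPase.

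Ran-1 (comp50520_c0, on A02 from 2072448 to 2073473) had the closest match among the abundant members, with 14452 reads in yellow seeds and 14660 in brown seeds, a ratio of 1.00 (0.977 to 1.02). Its transcript of 2276 bp also matched a Tudor-like RNA-binding protein and an Agenet domain, and the reads of these parts cannot be told apart. The 3 unigenes of Ran GTPase-activating proteins, which sit at the nuclear envelope, had ratios of 1.03 (comp53138_c0), 0.986 (comp50218_c0) and 0.783 (comp14829_c0), with no adjusted p under 0.05.

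Unigenes named as GTPase-activating proteins, which switch the GTPases off, made up 48 of the members, and none was called. Of these, 25 were ARF GTPase-activating proteins with a median log2 ratio of -0.07, and 3 were higher and 5 lower at an adjusted p under 0.05, beside the background of 10.9% and 10.6%. AGD3 (comp54930_c0), known as VAN3 in *Arabidopsis*, where it is needed for continuous leaf veins, had 2704 reads in yellow seeds and 2261 in brown seeds. Its ratio was 1.21 (1.15 to 1.28), with an adjusted p of 3.49e-10 by Fisher's exact test and Benjamini-Hochberg adjustment. A unigene named AGD11 (comp44400_c0) had 347 reads in yellow seeds and 244 in brown seeds, a ratio of 1.44 (1.22 to 1.71). It lacked the ARF GTPase-activating domain among its Pfam entries. Its best NR hit was a C2 domain-containing protein of *Brassica rapa*, so it may not be an ARF GTPase-activating protein.

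AGD1 (comp49379_c0) was the lowest of this class with at least 100 reads, at 466 reads in yellow seeds and 588 in brown seeds, a ratio of 0.804 (0.710 to 0.910). AGD5 (comp54761_c0), known as NEVERSHED in *Arabidopsis*, where it is needed for the shedding of floral organs, had 40.4 RPKM in yellow and 45.6 in brown seeds, a ratio of 0.886 (0.831 to 0.945). AGD12 (comp48446_c0), AGD7 (comp53453_c0) and AGD14 (comp53014_c0) were lower at an adjusted p under 0.05 with ratios of 0.844, 0.869 and 0.907, and AGD4 (comp52711_c0) was higher with 1.11. AGD8 (comp48867_c0), the most abundant at 70.2 RPKM in yellow and 73.5 in brown seeds, had a ratio of 0.955 (0.906 to 1.00). Only 13 of the 25 unigenes in this class had the domain that gives it its name. For most of the others the best NR hit was a C2 domain-containing or calcium-dependent lipid-binding protein. Those may not be ARF GTPase-activating proteins, though the AGD1 unigene comp49348_c0, also without the domain, had an ARF-GAP entry as its best NR hit.

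The 8 Rab GTPase-activating unigenes had ratios from 0.897 to 1.11, a median log2 ratio of 0.00 and no adjusted p under 0.05. A GYP7 unigene (comp52754_c0) was the most abundant, with 39.7 RPKM in yellow and 38.7 in brown seeds, a ratio of 1.02 (0.966 to 1.09). Most names of this class are those of yeast proteins, and 6 of the 8 had the TBC domain, the only one looked for, among their Pfam entries. The others (comp47973_c0 and comp54956_c0) were named after the catalytic subunit of Rab3 GTPase-activating protein, and no other domain was looked for in them.

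A unigene named after the human Ras GTPase-activating protein 4 (comp53433_c0) had 481 reads in yellow seeds and 485 in brown seeds, and its ratio was 1.01 (0.885 to 1.14). Its best NR hit was a plant synaptotagmin, so it may not be a GTPase-activating protein.

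The names repeated over several loci, since *B. napus* carries A and C genomes. The 124 unigenes had 80 Swiss-Prot names, 27 of which were shared by more than 1 unigene, and 8 genes held more than 1 unigene. On A chromosomes 57 members had a median log2 ratio of -0.03, and on C chromosomes 51 had -0.10. Reads of near-identical copies could have been split between them by the assembly and the counting, so a ratio belongs to its unigene and not with certainty to a single locus.

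Partners of these GTPases outside the rule were taken from a list of 12 classes with 134 unigenes, 120 with at least 20 reads. None was called higher and 1 was called lower, against the background shares of 2.69% and 1.32% given above. At an unadjusted p under 0.05, 19 were higher and 27 lower, and at an adjusted p under 0.05 with any fold, 11 were higher and 22 lower. The background shares were 16.1% and 15.7% at the unadjusted threshold and 10.9% and 10.6% at the adjusted one. The median log2 ratio was -0.01. The most abundant, Rab GDP dissociation inhibitor alpha (comp53339_c0), which keeps Rab proteins soluble, had 274 RPKM in yellow and 266 in brown seeds, a ratio of 1.03 (1.00 to 1.06).

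The called partner was Syntaxin-112 (comp43927_c0, on A07 from 1649453 to 1650319), a membrane fusion protein of the group that includes the cytokinesis syntaxin KNOLLE. It had 19 reads in yellow seeds and 87 in brown seeds, a ratio of 0.222 (0.127 to 0.367) and an adjusted p of 4.78e-10 by Fisher's exact test with Benjamini-Hochberg adjustment. Of 27 syntaxin and syntaxin-binding unigenes with at least 20 reads, 22 lay below 0 (21 under TMM scaling), with a median log2 ratio of -0.16. At an adjusted p under 0.05 with any fold, 10 unigenes of this class were lower and 1 higher, beside the background of 10.6% lower and 10.9% higher. KNOLLE, which fuses vesicles at the cell plate and was picked after its values were seen, had 3 unigenes of 1 gene on A08 with 159 reads in yellow seeds and 292 in brown seeds, a ratio of 0.552 (0.452 to 0.672).

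ARF exchange factors, the GNOM and BIG proteins that load ARF with GTP, lay on the other side. The 7 unigenes were of 6 genes, as the GNOM unigenes share a gene and are not independent of each other. All 7 had a log2 ratio above 0 with a median of 0.15, except that 1 of them fell below 0 under median-ratio scaling of the libraries. Of the 7 unigenes, 4 had an adjusted p under 0.05 as higher, beside the background of 10.9%. The unigenes named here from this class were picked after their values were seen. The BIG3 unigene (comp54610_c0) had 4909 reads in yellow seeds and 3723 in brown seeds, a ratio of 1.34 (1.28 to 1.40). The GNL1 unigene (comp53902_c0) had 1313 in yellow and 1061 in brown seeds, a ratio of 1.26 (1.16 to 1.36). The coatomer subunits, the coat that ARF recruits, had 31 unigenes with at least 20 reads and a median of -0.03, and the exocyst subunits, which tether vesicles for RAB and ROP proteins, had 28 and a median of 0.09.

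**Figure D5:**
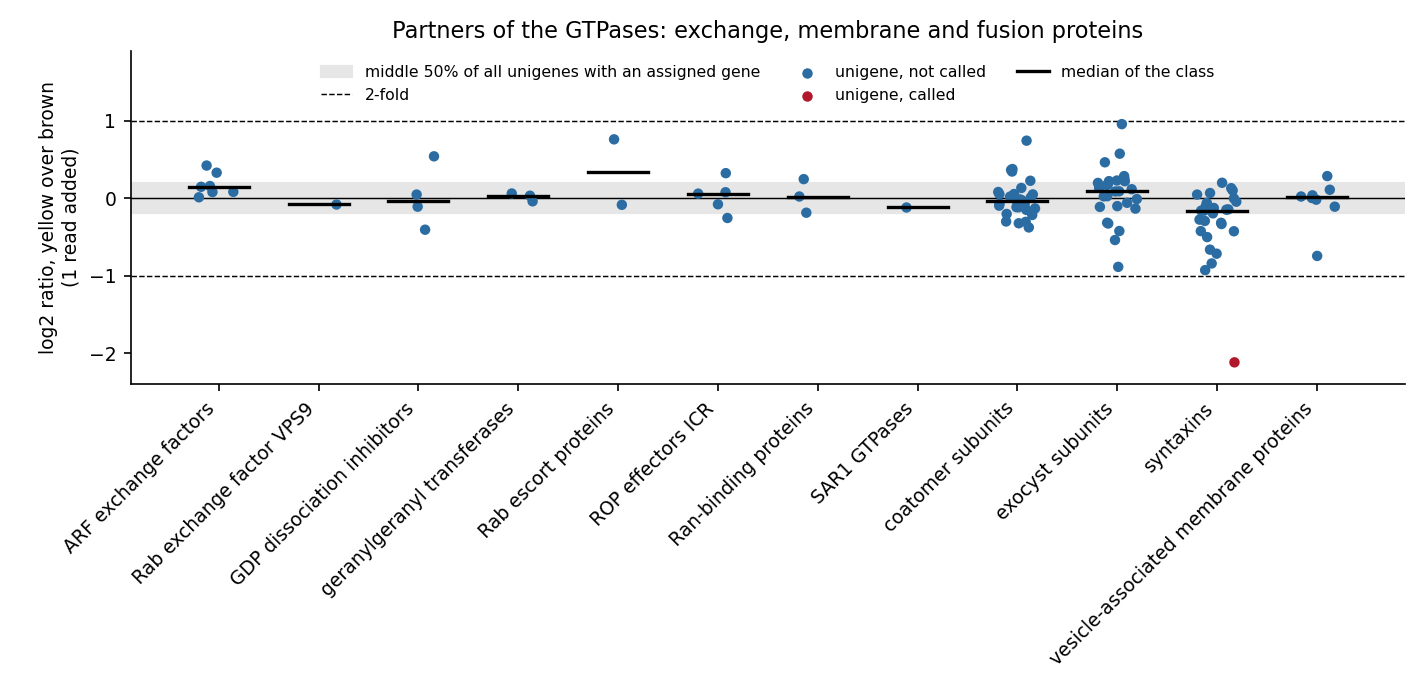
Log2 ratio of yellow over brown seeds, with 1 read added, of the 120 partner unigenes with at least 20 reads, by class. Black bars are medians, the grey band holds the middle 50% of all unigenes with an assigned gene and dashed lines mark 2-fold. Syntaxin-112, in red, is at -2.12, and the 7 ARF exchange factors lie above 0 with reads scaled to the library totals, though 1 falls below 0 under median-ratio scaling.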

How the data were processed

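Poly(A) RNA of whole seeds was sequenced with 1 library per line. The authors filtered the paired reads, assembled both libraries together with Trinity and annotated the unigenes against databases that include NR, Swiss-Prot, Pfam, KEGG and KOG. How the reads were aligned and counted is not given in the sources used here. Estimated counts per unigene, which need not be whole, were deposited by the authors unscaled, and they were rounded to whole numbers here. The RPKM values were deposited by the authors as counts divided by unigene length and a total that is constant within a library. Positions are those of the *B. napus* genes that the authors assigned from the published annotation of cultivar Darmor-bzh. Other tables of the paper were not used.

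For each unigene, its reads and the rest of the library were set in a two-sided Fisher's exact test (SciPy 1.17.1), with Benjamini-Hochberg adjustment over 50366 unigenes. The library totals were 23236592 in yellow and 23575447 in brown seeds. Intervals of ratios are 95% exact binomial (Clopper-Pearson) intervals and cover counting error only. For a unigene of 1 kb, a count of 0 allows up to 3 reads, or an RPKM of 0.129 in yellow and 0.127 in brown seeds. Medians use unigenes with at least 20 reads and 1 read added. The tests were tested on simulated data.

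The members, classes, partner list and markers were chosen with earlier results of these data known. Named in each subfamily or clade were the most abundant member, every called member and the highest and lowest log2 ratio among members with at least 100 reads, 43 members in all. The partner list followed the same rule for called unigenes and the most abundant one. Other unigenes named in the text were chosen after their values were seen. The study names DEGseq, whose formula was written out anew as an alternative, beside edgeR 4.0.16 (TMM, and an exact test with an assumed coefficient of variation) and DESeq2 1.42.0 size factors. Python 3.11.15, numpy 2.4.6, pandas 2.3.3, matplotlib 3.10.9 and R 4.3.3 were used. The values of 1 class of GTPase-activating proteins, which stays in the counts over all members, are not reported here. No sequence of a member is printed here.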

Additional observations from a re-analysis of the deposited data

How the results depend on the processing

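No paired analysis was possible because each line had 1 library, and for the same reason no replicate could be left out. The median log2 ratio of the members lay between -0.10 and -0.06 under TMM and median-ratio scaling, 0.5 or 5 added reads, RPKM with 0.1 added, no read filter or 100 reads, and 1 value per assigned gene, and also, chosen after seeing the data, over members with the subfamily's Pfam domain, which gave no value for the GTPase-activating proteins of Ran and for the one named after Ras. No subfamily median moved by more than 0.09, the move of the ARF GTPase-activating proteins to -0.16 over those with the domain, where the main value was -0.07. Medians close to 0 turned sign: with at least 100 reads ROP was at 0.01, ARF at -0.02 and the Ran GTPase-activating proteins at 0.01, ARF was also at -0.02 with the domain, and median-ratio scaling put Ran-1 and the Rab GTPase-activating proteins, both at 0.00 before, at -0.02 and the Ras GTPase-activating unigene at -0.01. The domain put the Rab GTPase-activating proteins just below 0. TMM scaling moved the median of all unigenes by 0.01 and median-ratio scaling by -0.02.

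The calls of both unigenes named RopGEF2 held under these scalings, with the DEGseq formula, at an adjusted p under 0.001 and with a minimum of 20 reads. With the log2 ratio past 1.5, only 1 member was called lower, and with a 1.5-fold threshold 1 was called higher and 6 lower. With an assumed coefficient of variation of 0.2 or 0.4, 0 were called, though the true spread between replicate libraries was not measured. For the partner list, 3 were called lower at 1.5-fold and 0 with 0.4, where Syntaxin-112 was lost. Over all unigenes, 826, 348 and 88 were called higher and 370, 98 and 18 lower with assumed values of 0.1, 0.2 and 0.4. An adjusted p under 0.001 gave 701 and 257, a minimum of 20 reads gave 943 and 441, and 1.5-fold gave 2245 and 1304. Which assumed value lies nearest the true spread cannot be told with 1 library per line.

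Depth set the width of the intervals, from 0.977 to 1.02 for Ran-1 to 0.254 to 0.973 for the lowest RABH1d unigene. Splice forms, homeologous copies and composite unigenes could not be separated.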
